A study of Mus musculus with 4 samples.

Results

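The cells described here are conventional dendritic cells, antigen-presenting cells made in the bone marrow, found among sorted mouse hematopoietic stem and progenitor cells by single-cell RNA sequencing. They were chosen by their own transcripts, counted as UMIs (unique molecular identifiers, each standing for 1 captured RNA molecule). Among cells with at least 500 detected genes and at most 10% of UMIs from mitochondrial genes, a cell was taken if it held at least 10 UMIs of H2-Aa, 30 of Cd74 and 5 of Cst3. Cells with more than 1 UMI of Siglech, any UMI of Cd79a, or more than 1 UMI of C1qa, C1qb and C1qc together were left out, since these genes mark plasmacytoid dendritic cells, B cells and macrophages. The rule took 784 of 41122 kept cells.

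The data set holds 2 samples of donor cells carrying a heterozygous mutation of Srcap, a chromatin-remodelling ATPase, and 2 samples of wild-type donor cells, all C57BL/6. The CD45.2 donor cells had been transplanted in competition and were sorted from recipient bone marrow 20 weeks later, and 20000 of them entered each droplet library (10x Genomics 3' chemistry, with no multiplexing). The nature of the Srcap mutation and the number of mice behind each sample are not given in the sources used here. All libraries came in 1 merged matrix whose cell barcodes end in 1, 2, 3 or 4, and no source used here ties an ending to a genotype. The 4 libraries are therefore described by their endings, always in the order 1 to 4, and the mutant samples were not compared with the wild-type samples.

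Conventional dendritic cells take up antigen, cut it into peptides and show these to T cells on MHC class II and class I molecules. They form 2 classical types in the mouse. Type 1 cells (cDC1) carry the chemokine receptor Xcr1 and the dead-cell receptor Clec9a, depend on the transcription factors Irf8 and Batf3, and specialise in presenting captured antigen on MHC class I. Type 2 cells (cDC2) carry Sirpa and, in many tissues, the lectin Cd209a, and lean on Irf4, Klf4 and Zeb2. Both types arise from Flt3-dependent precursors in bone marrow and are marked by Zbtb46, whereas plasmacytoid dendritic cells depend on Tcf4.

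The 4 libraries held 112027160 to 144385614 UMIs in 44151 barcodes, of which 3029 were removed by the limits on genes and mitochondrial UMIs. Median UMIs per kept cell ran from 9824 to 10226.5. The dendritic cells summed to 3009343, 2188178, 1772862 and 1863024 UMIs in libraries 1 to 4, with medians of 9077, 9893, 9991.5 and 10174 UMIs per cell. A 16-base barcode recurred between libraries 209 times. It did so for 10 of the dendritic cells, and none of these was a dendritic cell in more than 1 library.

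Conventional dendritic cells were a minor share of every library. Libraries 1 to 4 held 276, 189, 160 and 159 of them. As shares of kept cells these were 2.22% (exact 95% binomial interval 1.97 to 2.5), 1.88% (1.63 to 2.17), 1.66% (1.41 to 1.93) and 1.76% (1.5 to 2.05). Library 1 was the highest and its interval overlapped that of library 2 but not that of library 3. These intervals, and all others given, cover counting error only.

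The rule's borders ran through thinly filled ranges. Of 842 kept cells past the 3 minimums, 38 were left out for Cd79a, 16 for the C1q genes and 5 for Siglech. The median dendritic cell held 73 UMIs of H2-Aa, 153.5 of Cd74 and 182 of Cst3, far above the minimums. Just inside the Cd74 minimum (30 to 35 UMIs) lay 14 cells, and just outside it (24 to 29 UMIs) lay 13. Xcr1 or Clec9a was seen in 35.7% of these inner cells and 30.8% of these outer ones.

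Most of the cells were of the Xcr1 and Clec9a kind. At least 1 UMI of Xcr1 or Clec9a and none of Cd209a was found in 232, 167, 130 and 134 cells, which were 84.1%, 88.4%, 81.3% and 84.3% of the dendritic cells of libraries 1 to 4. Cd209a without Xcr1 or Clec9a was found in 2, 3, 1 and 3 cells, at most 1.89% of any library's dendritic cells. Both kinds of transcript were seen in 2, 3, 2 and 4 cells, and neither in 40, 16, 27 and 18 cells (14.5%, 8.47%, 16.9% and 11.3%).

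**Figure D1:**
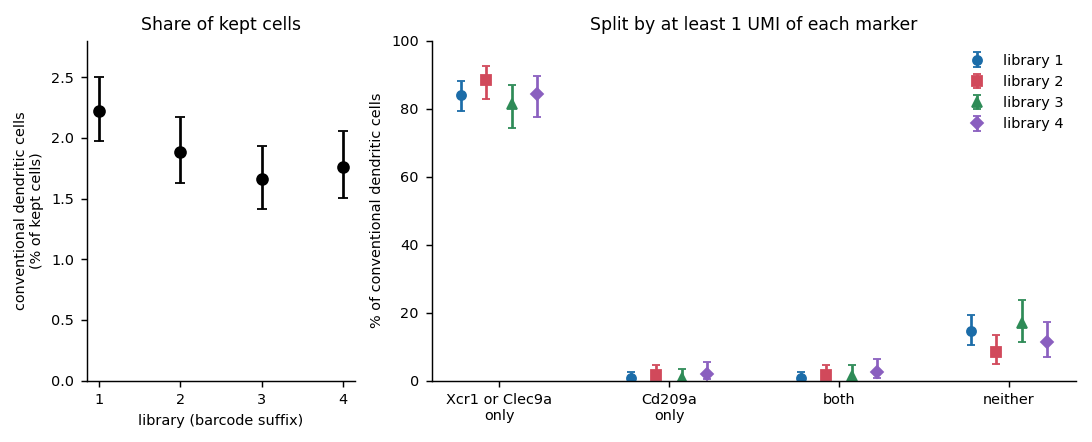
Conventional dendritic cells as a percentage of kept cells in libraries 1 to 4, and the percentage of them with Xcr1 or Clec9a, with Cd209a, with both or with neither. Points are the shares, axes start at 0 and error bars are exact 95% binomial intervals. The Xcr1 or Clec9a set holds 81.3% to 88.4% of the cells in each library, and the Cd209a set at most 1.89%.

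The split was set beside the depth of the cells. Xcr1 was seen in 69.1% and Clec9a in 76.8% of the 784 cells, and 74.9% held at least 2 UMIs of the pair. Among all other kept cells 0.518% held at least 1 UMI of the pair. The median depth was 9693.5 UMIs in the dendritic cells and 10074 in the others. Thinned to 4000 UMIs per cell, 73.5%, 76.9%, 69.6% and 73.4% of the dendritic cells kept a UMI of the pair, against 0.212%, 0.336%, 0.130% and 0.253% of the other kept cells. Thinning left out 332, 313, 242 and 185 shallower cells, among them 4, 3, 2 and 1 dendritic cells. Cd209a was rare everywhere: 29 of all kept cells held it, 20 inside the rule and 9 outside (0.0223% of 40338).

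The label of conventional dendritic cells was checked against genes that the rule did not use. Values are CPM (counts per 1000000 of the set's UMIs in that library), and a ratio is the log2 difference of CPM + 1 within a library, given as the median over 4 libraries. Zbtb46, the transcription factor of the conventional lineage, stood at 35.9, 52.6, 52.5 and 40.3 CPM in the dendritic cells and 0.522, 0.663, 0.371 and 0.649 CPM in all other kept cells, a log2 ratio of 4.83 (4.6 to 5.29 over libraries). Itgax, which encodes CD11c, stood at 50.2, 49.8, 47.9 and 60.7 CPM against 1.05, 1.19, 1.02 and 1.09 CPM (log2 ratio 4.62). Both genes were higher in the dendritic cells in every library. These levels are summed over each set, so they do not show how single cells overlapped.

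Flt3, the receptor for the growth factor that drives dendritic cell development, stood apart less. It was at 139, 165, 145 and 154 CPM in the dendritic cells and 80.6, 94.6, 77.8 and 67.2 CPM in the other kept cells, which include Flt3-expressing progenitors, and its log2 ratio of 0.84 (0.78 to 1.18) did not reach 2-fold in every library. Of the markers named with the label, Cd209a was the exception, at 4.65, 4.57, 3.38 and 15 CPM from 14, 10, 6 and 28 UMIs. The label fits the shared and the type 1 genes, and the type 2 marker was close to absent.

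**Figure D2:**
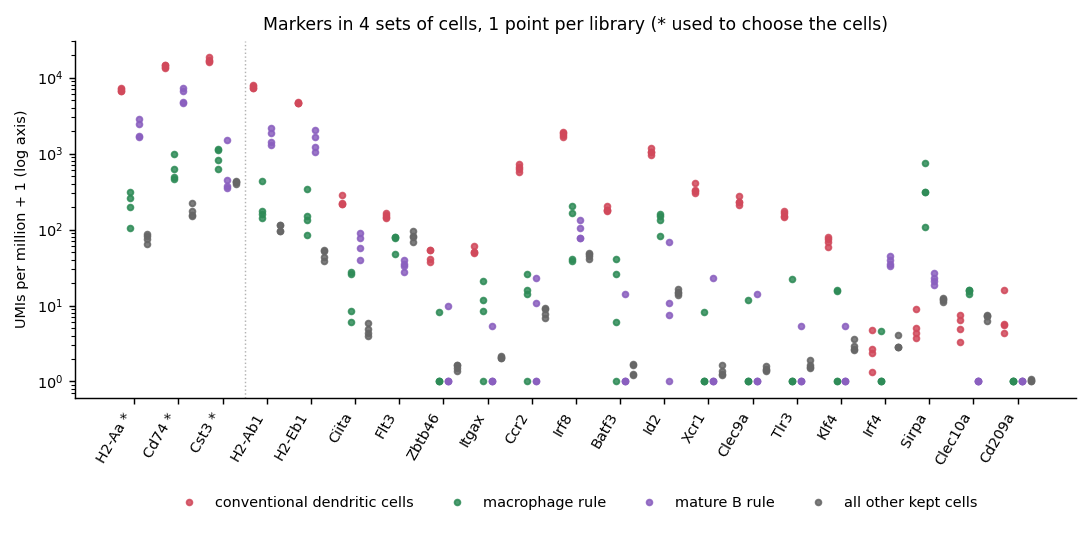
Level of 21 marker genes in CPM + 1 on a log axis, 1 point per library, in the conventional dendritic cells, in macrophages and mature B cells picked by their own markers, and in all other kept cells. Genes with an asterisk were used by the rule; Zbtb46, Batf3, Xcr1 and Clec9a are higher in the dendritic cells than in any other set in all 4 libraries, and Cd209a stays at 3.38 to 15 CPM.

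Across all genes, 463 of 5762 tested genes were higher in the dendritic cells (8.04%) and 408 were lower (7.08%). A gene counted as higher or lower if each of the 4 libraries gave a 2-fold or larger difference with the same sign, among genes with a mean of at least 20 CPM over both sides. The rule chose the cells by gene levels, so these counts describe them and are no test. With TMM scaling, which raised every log2 ratio by a median of 0.31, 640 genes were higher and 221 lower.

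Genes of type 1 identity led the profile. All 19 of the 22 listed genes that passed the level filter were higher, with a median log2 ratio of 5.89, against -0.26 for all tested genes. Listed genes near absent in the other kept cells passed only through the dendritic cells, so this count is no test of the label. Xcr1 (chr9:123852315-123862029, minus strand, mm10) stood at 331, 407, 301 and 319 CPM in the dendritic cells and 0.372, 0.629, 0.241 and 0.21 CPM in the other kept cells. Clec9a (chr6:129408862-129424763, plus strand) stood at 228, 275, 227 and 209 CPM against 0.451, 0.578, 0.397 and 0.357 CPM. Every library showed the same order of magnitude for both receptors.

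The type 1 transcription factors followed. Batf3 (chr1:191097847-191108945, plus strand) stood at 172, 180.1, 179 and 202 CPM in the dendritic cells and 0.672, 0.697, 0.233 and 0.265 CPM elsewhere, a log2 ratio of 6.96. Irf8 (chr8:120736358-120756694, plus strand) stood at 1674, 1944, 1884 and 1743 CPM against 39.7, 44.2, 47 and 48.4 CPM (log2 ratio 5.33). Id2, an inhibitor of E proteins that conventional dendritic cells need, stood at 949.7, 1048, 1178 and 1057 CPM against 13.5, 14, 12.9 and 15.3 CPM (log2 ratio 6.08). Each of these genes was higher in the dendritic cells than in the rest in every library.

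Further type 1 genes marked uptake and sensing. Naaa, a lysosomal amidase, stood at 873, 1026, 980.3 and 836 CPM in the dendritic cells and 4.21, 4.39, 4.03 and 4.39 CPM in the other kept cells (log2 ratio 7.48). Ifi205, an interferon-inducible gene, had a log2 ratio of 7.39, and Cadm1, an adhesion molecule of type 1 cells, one of 5.83. Wdfy4, which type 1 cells need for cross-presentation, stood at 406, 538, 444 and 427 CPM against 44.3, 53.1, 44.4 and 40.9 CPM.

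The highest-ranked genes outside the rule included several with roles in lysosomes, metabolism and adhesion. Plbd1, a phospholipase-like lysosomal protein, stood at 772, 862, 811 and 849 CPM in the dendritic cells and 1.65, 1.6, 0.707 and 0.704 CPM elsewhere, a log2 ratio of 8.63. Aif1 (a cytoskeletal calcium-binding protein, 7.15), Ckb (a creatine kinase, 7.12), Lgals3 (a galectin, 6.83), Jaml (a junctional adhesion molecule, 6.8) and Gpr141b (6.74) had log2 ratios of similar size. None of these genes is on the lists of type 1 or type 2 identity.

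Type 2 genes gave a mixed picture. Of 24 listed genes, 8 passed the level filter, 5 of them higher and 3 lower, with a median log2 ratio of 1.59. The 5 higher ones included Lyz2 (lysozyme) and Ms4a6c, genes shared with monocytes. Sirpa, an inhibitory receptor that marks type 2 cells, stood at 3.99, 2.74, 3.38 and 8.05 CPM in the dendritic cells and 10.1, 11.1, 10.7 and 11.7 CPM in the other kept cells. Irf4, the transcription factor of type 2 cells, had 1, 3, 3 and 7 UMIs, and the lectins Clec10a and Mgl2 had 7, 14, 7 and 10 UMIs and 2, 0, 0 and 4 UMIs. These defining type 2 genes were at a few UMIs per library.

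Of the type 2 genes that were not rare, Klf4, a zinc-finger factor also used by monocytes, stood at 58.8, 77.7, 75 and 67.6 CPM in the dendritic cells against 1.62, 1.93, 1.7 and 2.66 CPM (log2 ratio 4.63). Zeb2, a repressor needed for type 2 and plasmacytoid cells, went the other way, at 32.9, 21.9, 20.3 and 36.5 CPM in the dendritic cells and 117, 151, 119 and 127 CPM in the other kept cells (log2 ratio -2.15). The other listed transcription factors split as well: of 21 that passed the filter, 8 were higher and 2 lower. Bcl6, a transcriptional repressor, had a log2 ratio of 3.34, and Spi1, which encodes PU.1, one of 1.51. Cebpb, a myeloid factor, had one of -2.05, and Tcf4, the plasmacytoid factor, one of -1.02.

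MHC class II genes formed the second block. H2-Aa and Cd74 chose the cells and are set aside, and all 11 of the other 12 listed genes that passed the filter were higher, with a median log2 ratio of 4.08. H2-Ab1, the beta chain of I-A, stood at 7192, 7379, 8102 and 7742 CPM in the dendritic cells and 115, 113, 94.3 and 96 CPM in the other kept cells (log2 ratio 6.17). H2-Eb1, the beta chain of I-E, stood at 4660.1, 4569.6, 4735 and 4683 CPM against 52.4, 50.4, 37.2 and 43.2 CPM (log2 ratio 6.6). The libraries lay within a narrow band in the dendritic cells and far above the rest.

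The regulators of the pathway moved with its chains. Ciita, the coactivator that switches on MHC class II genes, stood at 216, 285, 223 and 214 CPM in the dendritic cells and 3.93, 4.83, 3.28 and 3.03 CPM elsewhere (log2 ratio 5.66). H2-DMb1, a chain of the peptide-exchange factor H2-M, stood at 565, 576, 619 and 604 CPM against 36.8, 35.4, 33.4 and 32.8 CPM. H2-Ob, a chain of the H2-O inhibitor of that exchange, stood at 114, 131, 121 and 113 CPM against 27.5, 29, 27.7 and 22.2 CPM (log2 ratio 2.11). March1, a ubiquitin ligase that removes MHC class II from the surface, and Ifi30, a lysosomal thiol reductase, had log2 ratios of 6.11 and 5.09.

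The promoters of H2-Aa, H2-Eb1, H2-DMb1 and H2-Ob are shown, and a link between their letters and their levels was not tested. Each window, from RefSeq (GRCm38.p6), runs from 250 bases before a gene's start to 50 after it, and capitals mark TGATTGG, the reversed CCAAT element known as the Y box of MHC class II promoters. The motif's letters were chosen after the windows had been looked at.
H2-Aa: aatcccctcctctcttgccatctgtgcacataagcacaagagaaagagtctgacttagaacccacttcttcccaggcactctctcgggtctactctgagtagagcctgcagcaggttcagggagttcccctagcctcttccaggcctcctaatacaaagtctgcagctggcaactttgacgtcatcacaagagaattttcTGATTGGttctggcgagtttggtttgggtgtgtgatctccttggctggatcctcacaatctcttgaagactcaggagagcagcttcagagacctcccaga
H2-Eb1: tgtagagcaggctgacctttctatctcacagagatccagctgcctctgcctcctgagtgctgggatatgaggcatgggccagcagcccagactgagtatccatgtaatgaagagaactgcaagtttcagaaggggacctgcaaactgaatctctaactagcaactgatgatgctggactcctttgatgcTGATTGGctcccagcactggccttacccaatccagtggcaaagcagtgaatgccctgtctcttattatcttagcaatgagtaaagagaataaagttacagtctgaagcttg
H2-DMb1: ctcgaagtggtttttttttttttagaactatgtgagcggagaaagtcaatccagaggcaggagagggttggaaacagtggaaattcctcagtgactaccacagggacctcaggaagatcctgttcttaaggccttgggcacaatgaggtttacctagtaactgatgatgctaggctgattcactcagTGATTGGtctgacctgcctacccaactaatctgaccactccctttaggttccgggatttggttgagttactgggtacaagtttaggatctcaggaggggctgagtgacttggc
H2-Ob: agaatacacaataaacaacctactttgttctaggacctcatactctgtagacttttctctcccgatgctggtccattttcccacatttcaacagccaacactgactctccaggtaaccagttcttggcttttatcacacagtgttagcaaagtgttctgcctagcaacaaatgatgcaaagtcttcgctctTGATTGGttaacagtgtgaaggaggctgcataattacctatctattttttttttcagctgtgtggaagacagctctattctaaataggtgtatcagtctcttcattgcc
H2-Aa is at chr17:34287774-34288073 (minus strand), H2-Eb1 at chr17:34305617-34305916 (plus), H2-DMb1 at chr17:34152941-34153240 (plus) and H2-Ob at chr17:34238655-34238954 (plus).

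Of 10 listed MHC class II genes with a window, 7 held TGATTGG on either strand, always on the strand of the gene. Its first base lay 50 bases before the start of H2-Aa, 61 before H2-Eb1, 63 before H2-DMb1, 59 before H2-Ob, 45 before H2-Oa, 92 before H2-DMb2 and 102 before H2-Eb2. The windows of H2-DMa, Ctss and Ifi30 did not hold these letters, though these genes were higher in the dendritic cells. H2-Eb2 held them but was near absent, at 0.0136 UMIs per Xcr1 or Clec9a cell. H2-Ab1, Cd74, Ciita and March1 had no window. Among all 32851 promoter windows of the table, 2568 held the motif (7.82%), and its core ATTGG was in 37.4%. A match describes the letters of a window and shows no binding.

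MHC class I genes were less distinct. Of 20 listed genes that passed the filter, 8 were higher and none lower, with a median log2 ratio of 0.70. Tap1 (a peptide transporter subunit), Psmb9 (an immunoproteasome subunit) and Tapbp (tapasin, which loads peptide) had log2 ratios of 1.18, 1.49 and 1.56. H2-K1, a class I heavy chain, stood at 957, 1024, 918 and 1026 CPM in the dendritic cells and 1264, 1251, 1268 and 1336 CPM in the other kept cells. This heavy chain was slightly lower in the dendritic cells of every library (log2 ratio -0.39), short of 2-fold.

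Among sensors of microbes, a few were high. Of 28 measured pattern recognition genes, 9 passed the filter and 6 were higher, none lower. Tlr3, a receptor for double-stranded RNA, stood at 151, 173, 164 and 145 CPM in the dendritic cells and 0.665, 0.935, 0.50 and 0.53 CPM in the other kept cells (log2 ratio 6.54). Tlr11, a receptor for a parasite protein (profilin), stood at 47.5, 62.6, 50.2 and 52.1 CPM against 0.107, 0.0595, 0.0431 and 0.0183 CPM (log2 ratio 5.66). Unc93b1, the chaperone that carries both receptors to endosomes, had a log2 ratio of 2.86. The endosomal receptors Tlr7 and Tlr9 were near absent, at 0.332, 0.457, 0 and 0 CPM and 3.32, 2.74, 0.564 and 2.15 CPM in the dendritic cells.

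Receptors for movement followed the same direction. Of 11 chemokine and homing receptors that passed the filter, 6 were higher and 1 lower. Ccr2, a receptor that monocytes use to leave the bone marrow, stood at 570.2, 735, 672 and 624 CPM in the dendritic cells and 5.77, 7.88, 6.74 and 8.25 CPM elsewhere (log2 ratio 6.39). Cxcr3, a receptor for interferon-induced chemokines, stood at 66.1, 51.2, 51.9 and 53.7 CPM against 0.522, 0.587, 0.474 and 0.576 CPM. The integrin chains Itgb7 and Itgb2 had log2 ratios of 3.99 and 3.45.

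Signs of maturation were few. Of 28 listed maturation genes, 4 passed the filter and 1 was higher: Cd86, a costimulatory ligand for T cells, at 73.8, 78.6, 77.3 and 68.7 CPM in the dendritic cells and 2.07, 1.82, 1.89 and 1.6 CPM in the other kept cells. Ccr7, the receptor that takes mature cells to lymph nodes, had 17, 2, 6 and 1 UMIs, and Fscn1, an actin bundler of mature cells, had 16, 1, 0 and 7 UMIs. Most cells held neither gene.

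Lysosomal genes went both ways. Of 18 that passed the filter, 11 were higher and 2 lower, with a median log2 ratio of 1.64. The cathepsins Ctss and Ctsh, which cut proteins for presentation, had log2 ratios of 3.5 and 4.31, and Psap, the saposin precursor, stood at 1918, 2332, 2099 and 2041 CPM against 108, 123, 107 and 113 CPM. Cathepsin D (Ctsd) went the other way, at 28.9, 32, 21.4 and 23.6 CPM in the dendritic cells and 107, 110.1, 109.9 and 104 CPM in the other kept cells (log2 ratio -1.97), as did the membrane protein Cd63 (-2.26).

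Genes of stem and progenitor cells were low. Of 18 listed genes, 14 were lower and 1, Cd48 (a surface ligand of many blood cells), was higher, with a median log2 ratio of -2.12. Cd34, a surface sialomucin of progenitors, stood at 68.5, 70.4, 51.3 and 47.2 CPM in the dendritic cells and 287, 329, 282 and 221 CPM in the other kept cells (log2 ratio -2.2). Kit, the stem cell factor receptor, was closer, at 132, 154, 99.8 and 129 CPM against 179, 226, 165 and 177 CPM. Angpt1 (a niche growth factor) and Mecom (a stem cell transcription factor) had log2 ratios of -2.57 and -2.35.

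Most other lineages' genes were lower, and those of monocytes were not. All 6 tested B cell genes, 4 of 5 neutrophil genes and all 4 megakaryocyte genes were lower. Among the lowest genes were Igkc (immunoglobulin light chain, log2 ratio -6.44), Ebf1 (a B cell transcription factor, -5.53) and Vpreb1 (pre-B receptor, -4.55). Summed over each list, the dendritic cells held 72.2 to 86.4 CPM of macrophage genes, 134 to 514 CPM of neutrophil genes and 319 to 742 CPM of B cell genes. Of 7 tested monocyte genes, 4 were higher (Ccr2, Ms4a6c, S100a4 and Treml4) and 2 lower, with a median log2 ratio of 2.44, and the list summed to 1143 to 1483 CPM in the dendritic cells and 639 to 878 CPM in the other kept cells. The monocyte receptor Fcgr1 had 2, 0, 0 and 1 UMIs in the dendritic cells. At least 10 UMIs of other lineages' genes were found in 173 of the 784 cells (22.1%), against 34551 of 40338 other kept cells (85.7%). The genes counted include Ighm, seen in 85.5% to 88.1% of the dendritic cells of each library. The part of these 173 dendritic cells in the results was not tested as a cause, and counts without them are given below where they differ. They were left out on the dendritic side only. Without them 543 genes were higher and 639 lower than in the unchanged set of other kept cells.

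Growth factor receptors completed the profile. Of 12 that passed the filter, 5 were higher and 1 lower, with a median log2 ratio of 0.85. Csf2ra, a chain of the GM-CSF receptor, and Ifngr1, a chain of the interferon gamma receptor, had log2 ratios of 2.0 and 1.9. Csf1r, the receptor of the macrophage growth factor, had 2, 10, 4 and 4 UMIs in the dendritic cells.

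Macrophages of the same libraries were the first of the other antigen-presenting cells set beside them. Cells with at least 10 UMIs of the C1q genes numbered 47, 40, 18 and 9, and were shallow, with a median of 2626.5 UMIs. Of 5967 tested genes, 233 were higher in the dendritic cells (3.90%) and 324 lower (5.43%). With TMM scaling, which shifted the ratios by a median of 0.50, 396 were higher and 186 lower.

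MHC class II and type 1 genes stayed high against macrophages. Of 11 tested MHC class II genes 10 were higher, and of 19 type 1 genes 18 were. The dendritic cells had been chosen by H2-Aa and Cd74, and the macrophages by no MHC class II level. Type 1 genes near absent in the macrophages passed the filter only through the dendritic cells. These counts are therefore no test. H2-Ab1 stood at 7192, 7379, 8102 and 7742 CPM in the dendritic cells and 139.6, 436, 173 and 159 CPM in the macrophages. Bcl6, at 39.2, 50.3, 36.7 and 52.6 CPM, had no UMI in the macrophages of any library, and neither did Mycl, a Myc family gene of dendritic cells. Ccr2 stood at 570.2, 735, 672 and 624 CPM in the dendritic cells and 0, 25, 15.1 and 13.3 CPM in the macrophages.

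Macrophage, lysosomal and progenitor lists had members lower in the dendritic cells. All 10 tested macrophage genes were lower in the dendritic cells, with a median log2 ratio of -7.0 against -0.20 over all genes. Members near absent in the dendritic cells passed the filter only through the macrophages, so this count is no test. Of 20 lysosomal genes, 9 were lower and 2 higher. Of 17 stem and progenitor genes, 10 were lower (median -1.74). Vcam1, an adhesion molecule of marrow macrophages, stood at 2.33, 0.914, 0.564 and 0.537 CPM in the dendritic cells and 2887, 1129, 1214 and 822 CPM in the macrophages. Ctsd stood at 28.9, 32, 21.4 and 23.6 CPM against 3012, 1429.7, 1297 and 742 CPM, and Sirpa at 3.99, 2.74, 3.38 and 8.05 CPM against 758, 307, 309 and 106 CPM. Hmox1, the heme-degrading enzyme, had a log2 ratio of -7.66.

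Mature B cells, which also carry MHC class II, numbered 31, 21, 30 and 41 (median 3357 UMIs). Of 5390 tested genes, 316 were higher in the dendritic cells (5.86%) and 139 lower (2.58%). TMM scaling shifted the ratios by a median of 0.12. These B cells had been picked for H2-Aa as well as Cd79a and Ms4a1. H2-Ab1 stood at 7192, 7379, 8102 and 7742 CPM in the dendritic cells and 2184, 1399, 1848 and 1311 CPM in the B cells, a log2 ratio of 2.26. H2-DMb1 stood at 565, 576, 619 and 604 CPM against 129, 55.3, 51.2 and 42 CPM, whereas its close paralog and neighbour H2-DMb2 stood at 48.8, 46.2, 57 and 59.6 CPM against 182, 144, 275 and 161 CPM. These 2 genes, whose reads may be hard to tell apart, lay on opposite sides.

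In all, 4 of 11 MHC class II genes were higher in dendritic cells than in B cells and 1 was lower, and 17 of 19 type 1 genes were higher. The MHC class II median was 1.26, against 0.08 over all genes. All 12 tested B cell genes were lower, among them Ms4a1, which had picked the B cells. Members near absent in the dendritic cells passed the filter only through the B cells, and type 1 genes near absent in the B cells only through the dendritic cells. Ebf1 stood at 0.997, 0.457, 0.564 and 0.537 CPM in the dendritic cells and 209, 299, 851 and 239.9 CPM in the B cells, and Pax5, the B cell identity factor, had no UMI in the dendritic cells. Cxcl9, a chemokine for Cxcr3-bearing T cells, stood at 318, 239.9, 93.1 and 237 CPM in the dendritic cells and had no UMI in the B cells.

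Plasmacytoid dendritic cells were too few for counts of genes, with 3, 5, 4 and 4 cells. Irf8, which both kinds use, stood at 1674, 1944, 1884 and 1743 CPM in the conventional cells and 2557, 2915, 1810.0 and 1400.2 CPM in the plasmacytoid ones. Tcf4 stood at 76.8, 99.2, 85.7 and 81.6 CPM against 1690.2, 1412, 643 and 840.1 CPM, and Ly6d, an early lymphoid and plasmacytoid surface gene, at 11.3, 0.914, 28.8 and 10.7 CPM against 3597, 5800.0, 5311 and 5545 CPM. Batf3, Zbtb46 and Ciita had no UMI in the plasmacytoid cells. Tcf4 and Ly6d were lower, and Batf3 higher, in the conventional cells than in these few plasmacytoid cells in all 4 libraries.

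Within the dendritic cells, the 101 cells with neither Xcr1, Clec9a nor Cd209a were set against the 663 with Xcr1 or Clec9a. This comparison was added after the Cd209a cells had proved too few, and the levels of the 3 genes that made the sets are not read. The depths were close, with medians of 9755 UMIs in the Xcr1 or Clec9a cells and 9225 in the cells with neither. Of 5423 tested genes, 61 were higher in the Xcr1 or Clec9a cells (1.12%) and 30 lower (0.553%). With TMM scaling, which shifted the ratios by a median of 0.23, 98 were higher and 16 lower.

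The remaining type 1 genes went with the receptors. Of 17 tested, 11 were higher in the Xcr1 or Clec9a cells and none lower, with a median log2 ratio of 1.65, against -0.11 over all genes. Cadm1 stood at 106, 104, 138 and 98.4 CPM in the Xcr1 or Clec9a cells, while the cells with neither held 0, 0, 1 and 0 UMIs of it. Tlr11 stood at 55.8, 71.6, 59.2 and 60.2 CPM, against 2, 0, 0 and 0 UMIs in the cells with neither. Tlr3 stood at 171, 193, 192 and 164 CPM against 41.1, 38.7, 4.02 and 28.1 CPM. Summed over each set, these genes were higher in the Xcr1 or Clec9a cells in every library.

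Ppt1 and Naaa, type 1 genes whose products lie in lysosomes, had higher counts behind them. Ppt1, a lysosomal thioesterase, stood at 746, 802, 768 and 683 CPM in the Xcr1 or Clec9a cells and 108, 92, 72.3 and 84.2 CPM in the cells with neither, a log2 ratio of 3.06. Naaa stood at 1001, 1143, 1128 and 926 CPM against 209.7, 213, 145 and 238 CPM (log2 ratio 2.33). Snx22, a sorting nexin, and Cd36, a scavenger receptor, had log2 ratios of 3.36 and 3.03. Of 18 tested genes of the lysosome and antigen processing list, none was called in either direction, and the median was -0.15. Counted per cell, 17 of 19 type 1 genes had more UMIs in the Xcr1 or Clec9a cells in all 4 libraries. This count includes Xcr1 and Clec9a, whose direction was fixed because they made the sets.

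MHC class II followed in part. H2-Ab1 stood at 7938, 8019, 8879.8 and 8277 CPM in the Xcr1 or Clec9a cells and 3216, 2669, 3564 and 3633 CPM in the cells with neither, and H2-Eb1 at 5171, 5039, 5179 and 4993 CPM against 1991, 1235, 2174 and 2375 CPM. Both had a log2 ratio of 1.31, and they were the only 2 of 11 tested MHC class II genes past 2-fold in all 4 libraries. Cd86 stood at 83.7, 85.2, 87.8 and 79 CPM against 21.6, 29.1, 20.1 and 4.68 CPM.

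The 20 tested genes of the transcription factor list stayed short of 2-fold in at least 1 library. Batf3 stood at 167, 175, 179 and 209 CPM in the Xcr1 or Clec9a cells and 195, 208, 165 and 145 CPM in the cells with neither, overlapping, with a log2 ratio of -0.05. Irf8 and Flt3 had log2 ratios of 0.43 (0.05 to 1.1) and 0.46 (0.36 to 0.86), short of 2-fold, and Zbtb46 one of 1.2 (0.97 to 1.35). Klf4 came close, at 46.2, 60.1, 49.2 and 58.3 CPM against 125, 199, 221 and 117 CPM, and its log2 ratio of -1.56 ran over -2.14 to -0.99.

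**Figure D3:**
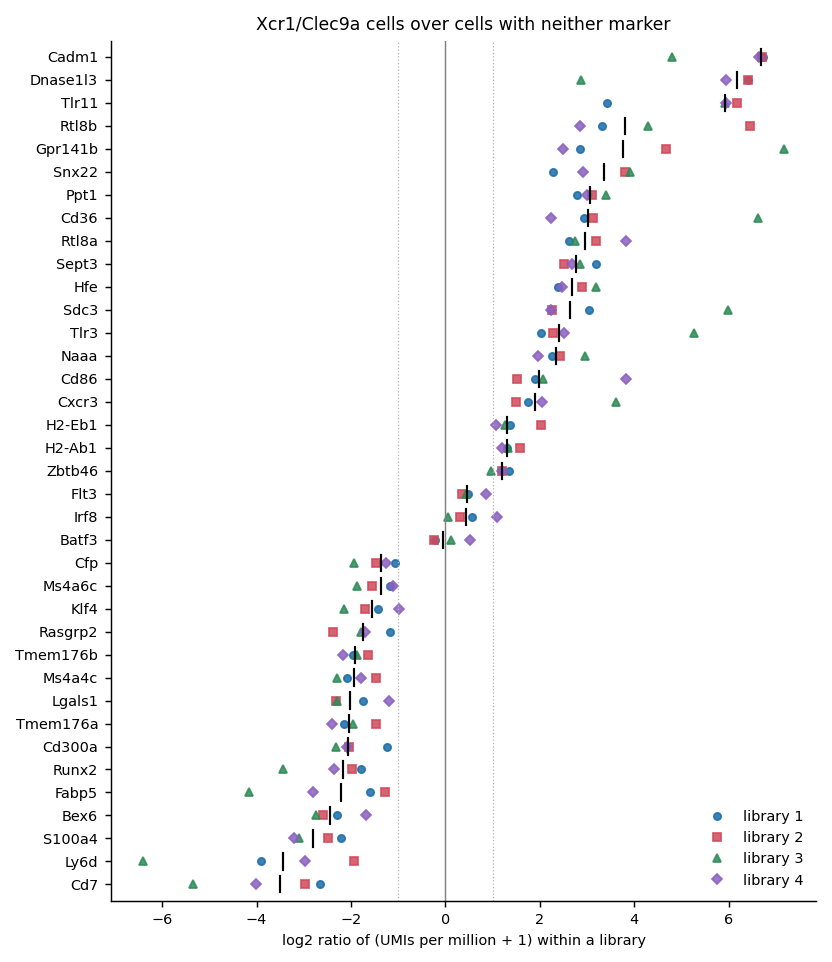
Log2 ratio of CPM + 1, Xcr1 or Clec9a cells over cells with neither, for 37 named genes; 1 point per library, a black bar at the median, a line at 0 and dotted lines at 2-fold. Cadm1, Tlr11, Ppt1 and Naaa lie right of 1 in all libraries, Batf3 lies around 0, and S100a4, Cd7 and Lgals1 lie left of -1.

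Genes higher in the cells with neither came from several programs. S100a4, a calcium-binding protein of monocytes and other motile cells, stood at 106, 86.7, 136 and 111 CPM in the Xcr1 or Clec9a cells and 495, 489, 1185 and 1029 CPM in the cells with neither (log2 ratio -2.8). Lgals1, a galectin, stood at 330.2, 250.3, 339 and 393 CPM against 1118, 1245, 1676 and 902 CPM. Cd7, a surface gene of lymphoid precursors and some dendritic cells, stood at 5.98, 12, 3.99 and 3.13 CPM against 43.2, 102, 201 and 65.5 CPM (log2 ratio -3.49).

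Of 5 tested plasmacytoid genes, 2 were lower in the Xcr1 or Clec9a cells: Ly6d, with 7, 1, 2 and 9 UMIs there and 26, 1, 49 and 11 UMIs in the cells with neither, and Runx2 (log2 ratio -2.17). Ly6d was at 1 UMI on each side in library 2. Of 8 tested maturation genes, 1 (Cd86, above) was higher in the Xcr1 or Clec9a cells and none lower. A pair of genes of migrating cells, chosen after their values were seen, went the other way at few UMIs. Ccr7 had 0, 1, 1 and 0 UMIs in the Xcr1 or Clec9a cells and 17, 1, 5 and 1 UMIs in the cells with neither, and Fscn1 had 0, 1, 0 and 1 UMIs and 16, 0, 0 and 6 UMIs. Library 1 held most of the UMIs of both genes. Cd83 and Cd40, costimulatory genes, had 0.193 and 0.16 UMIs per Xcr1 or Clec9a cell, against 0.208 and 0.158 per cell with neither.

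Other measures moved with this split. At least 10 UMIs of other lineages' genes were seen in 21.6% of the Xcr1 or Clec9a cells and 27.7% of the cells with neither, and plasma cell genes summed to 24676 CPM in the cells with neither of 1 library. Their part was not tested. Without such cells 60 genes were higher and 54 lower. Among resting cells alone 41 were higher and 25 lower. The fold calls of Lgals1, Fabp5, Tmem176a, Tmem176b, Bex6, Cd300a, Cfp, Ms4a6c and Rasgrp2 were each lost under at least 1 alternative.

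The 9 Cd209a cells are described by their values only. S100a4 stood at 947, 2075, 1631 and 2348 CPM in them, against 106, 86.7, 136 and 111 CPM in the Xcr1 or Clec9a cells. Klf4 was seen in 77.8% of them and 30.9% of the Xcr1 or Clec9a cells, and Csf1r in 44.4% against 1.36%. Clec10a and Sirpa were each seen in 33.3% of the Cd209a cells, and Irf8 in 55.6% of them, against 99.8% of the Xcr1 or Clec9a cells. S100a4 and Ccr2 were seen in all 9. With 1 to 3 cells per library these shares rest on single cells.

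Some of the dendritic cells were dividing. A cell was called dividing with at least 10 UMIs of G2 and M phase genes per 10000, and resting with at most 5 of S, G2 and M phase genes together. Libraries 1 to 4 held 52, 48, 26 and 29 dividing dendritic cells (18.8%, 25.4%, 16.3% and 18.2%), against 35.6%, 39.4%, 32.8% and 30.7% of the other kept cells. Thinned to 4000 UMIs, the shares were 19.1%, 30.1%, 17.7% and 20.9% against 38.2%, 41.6%, 34.3% and 32.1%. The dividing share was lower among the dendritic cells in each library at both depths.

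The cells fell mostly clear of the dividing limit, with 42 at 5 to under 10 G2 and M phase UMIs per 10000 and 27 at 10 to under 20. These bands leave out S phase UMIs, so they do not show how many cells lay near the resting limit. Of all dendritic cells, 155 (19.8%) were dividing and 371 (47.3%) resting, and the remaining cells were called neither dividing nor resting. Among the Xcr1 or Clec9a cells 123 of 663 were dividing (18.6%, exact 95% binomial interval 15.7 to 21.7), and among the cells with neither 29 of 101 (28.7%, 20.1 to 38.6). These intervals overlap.

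Dividing dendritic cells were set against the 126, 84, 79 and 82 resting ones, a comparison added after the data had been seen. They held more RNA, with a median of 14274 UMIs against 8910. Of 5363 tested genes, 338 were higher in dividing cells (6.30%) and 37 lower (0.690%). The cell cycle genes chose the sets, so the first count is read no further. With TMM scaling, which shifted the ratios by a median of -0.25, 269 were higher and 86 lower.

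Type 1 genes took a smaller share of the UMIs of dividing cells. Of 20 tested, 7 were lower and none higher, with a median log2 ratio of -1.07, against 0.20 over all genes. Xcr1 stood at 161, 199, 122 and 172 CPM in dividing cells and 495, 634, 389 and 417 CPM in resting cells (log2 ratio -1.64). Tlr11 stood at 17.3, 29.3, 21.9 and 12.3 CPM against 88.1, 113, 72.5 and 83.7 CPM, and Cadm1 at 43.8, 47.1, 53.6 and 34.8 CPM against 142, 143, 150.0 and 115 CPM. Summed over each set, these genes were lower in dividing cells in every library.

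Of 10 tested pattern recognition genes 2 were lower in dividing cells (Tlr3 and Tlr11), against 0.690% of all tested genes. Both are also on the type 1 list and are counted among its lower genes above. Slfn5 and Cxcl9 were among the lowest of all genes. Tlr3 stood at 74.9, 111, 85.2 and 67.5 CPM in dividing cells and 219, 241, 203 and 197 CPM in resting cells. Slfn5, an interferon-inducible gene, stood at 45, 75.1, 51.1 and 38.9 CPM against 199.7, 346, 245 and 219 CPM (log2 ratio -2.21). Cxcl9 stood at 57.6, 73.9, 4.87 and 30.7 CPM against 719.9, 499.6, 202 and 82.4 CPM (log2 ratio -3.18), with 2 UMIs in the dividing cells of library 3.

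MHC class II genes shared the direction, mostly short of 2-fold. H2-Ob and Ctss were lower, with log2 ratios of -1.38 and -1.2, and the list's median was -0.95. H2-Ab1 stood at 4324, 5179, 4917 and 5504 CPM in dividing cells and 9922, 9788, 9688 and 9233 CPM in resting cells, a log2 ratio of -0.95 (-1.2 to -0.75). The lineage transcription factors differed less, and none of 21 tested was called. Irf8, Batf3 and Id2 had log2 ratios of -0.61, -0.51 and -0.29.

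**Figure D4:**
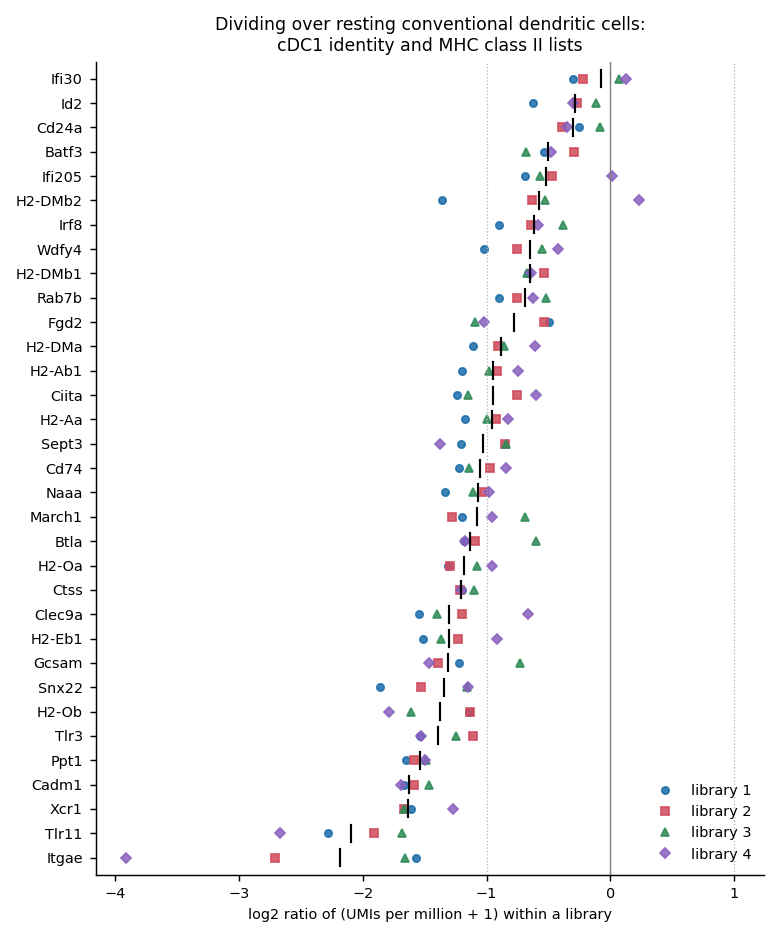
Log2 ratio of CPM + 1, dividing over resting conventional dendritic cells, for type 1 identity and MHC class II genes; 1 point per library, a black bar at the median, a line at 0 and dotted lines at 2-fold. Xcr1, Tlr11, Tlr3 and Cadm1 lie past 2-fold lower in all 4 libraries, and Irf8, Batf3 and Id2 lie nearer to 0.

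CPM is a share of all UMIs, and dividing cells held more UMIs, so UMIs per cell are given as well. Xcr1 had 2.69, 3.25, 1.92 and 2.9 UMIs per dividing cell and 4.19, 5.74, 3.87 and 4.07 per resting cell. Over all 4 libraries Tlr3 had 1.42 UMIs per dividing cell and 1.98 per resting cell, and Cadm1 had 0.735 against 1.27. These genes were lower in dividing cells on both scales.

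MHC class II genes kept their direction per cell only in part, and transcription factors were more often higher. Of 13 MHC class II genes, 7 had fewer UMIs per dividing cell in all 4 libraries, 1 had more and 5 differed in direction between libraries. These 13 include H2-Aa and Cd74, which chose the cells. H2-Ab1 had 72.2, 84.7, 77.7 and 92.8 UMIs per dividing cell and 84, 88.6, 96.4 and 90.2 per resting cell, with library 4 in the opposite order to the other 3. Irf8 had 22.4 UMIs per dividing cell and 19.6 per resting cell, Batf3 2.35 against 1.84, and Id2 14.5 against 10.4. Of 21 transcription factors, 13 had more UMIs per dividing cell in all 4 libraries and none had fewer. Of 20 type 1 genes, 10 had fewer, 5 more, and 5 differed in direction between libraries.

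Genes of progenitors were part of what dividing cells held in excess, together with some genes of other lineages. Cd34 stood at 127, 99.3, 99.9 and 81.8 CPM in dividing cells and 25.3, 31.6, 42 and 28.7 CPM in resting cells, and Myb, a progenitor transcription factor, at 165, 150.3, 122 and 108 CPM against 20.6, 27.6, 28 and 25 CPM. Mpo, a neutrophil granule enzyme, stood at 103, 283, 80.4 and 346 CPM against 10.3, 6.57, 16.5 and 2.5 CPM. At least 10 UMIs of other lineages' genes were seen in 63 of 155 dividing cells (40.6%) and 47 of 371 resting cells (12.7%). This limit is a plain count, not scaled to depth, and the median depth was 14274 UMIs in dividing cells and 8910 in resting ones. The median cell held 8 such UMIs among dividing cells and 5 among resting ones. The part of depth in these shares was not tested. The median of the stem and progenitor list was 1.15 over all cells and -0.023 without those cells. Without them 323 genes were higher and 36 lower. Among the Xcr1 or Clec9a cells alone the type 1 list had a median of -0.91 and the MHC class II list one of -0.97.

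Between the 4 libraries the dendritic cells were much alike. Of 1308 genes at 100 CPM or more in at least 1 library, 22 differed at least 2-fold between the highest and the lowest library (1.68%). Library 3 was the lowest for 16 of them and library 2 the highest for 11. Single cells carried some of the differences: 1 cell of library 3 held 5467 of the 5478 UMIs of Iglc1, an immunoglobulin light chain, and 1 cell of library 2 held 87.8% of the UMIs of Elane, a neutrophil protease. Without cells with other lineages' UMIs, Iglc1 stood at 3.27, 1.37, 5.44 and 4.13 CPM and Elane at 7.64, 5.47, 7.77 and 6.61 CPM.

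Mki67, a marker of dividing cells, stood at 239.6, 379.8, 152 and 223 CPM in libraries 1 to 4. Library 2 was the highest and library 3 the lowest, as for the share of dividing cells. Cxcl9 (chr5:92321347-92328079, minus strand) stood at 318, 239.9, 93.1 and 237 CPM and was seen in 23.2, 25.9, 7.5 and 13.8% of the dendritic cells. Its UMIs lay in few cells, with up to 146, 90, 113 and 130 in 1 cell of libraries 1 to 4. Library 3 was the lowest over all dendritic cells, whereas among resting ones library 4 was, at the values given above. Whether libraries differ by genotype cannot be told apart from other differences between them, and 4 unlabelled libraries allow no test.

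**Figure D5:**
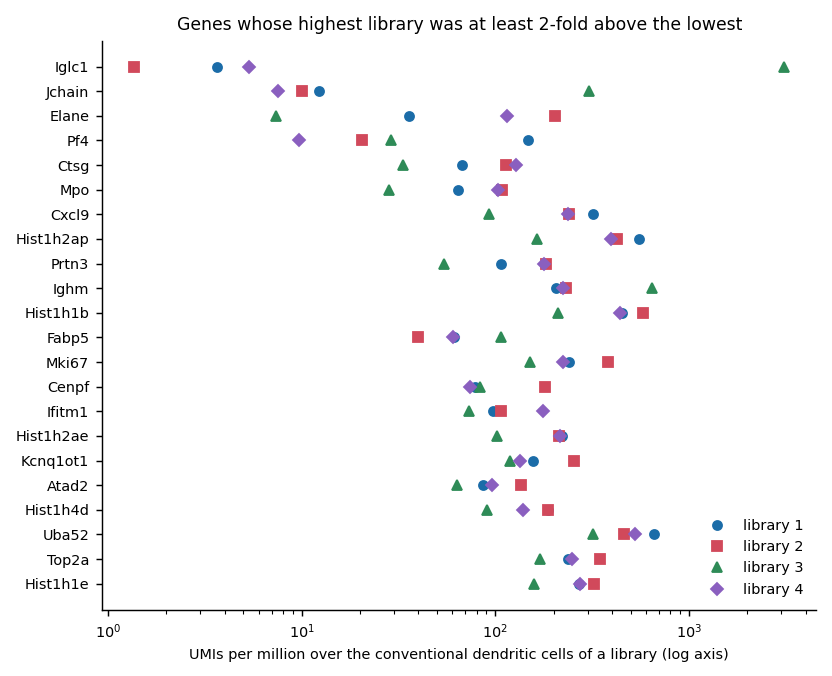
Level in CPM, on a log axis, of the 22 genes that differed at least 2-fold between libraries among conventional dendritic cells, with 1 point per library. Iglc1, Jchain, Elane and Pf4 are carried largely by single cells, and Mki67, Top2a and the histone genes are lowest in library 3.

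Srcap itself (chr7:127511983-127561219, plus strand) was read in all libraries. It stood at 40.9, 51.2, 31 and 38.6 CPM in the dendritic cells and 59.1, 82.1, 53.1 and 53.5 CPM in the other kept cells, lower in the dendritic cells in each library. A 3' tag count does not show which allele a transcript came from, so it is no check of genotype.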

How the data were processed

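Single-cell UMI counts of 32285 genes were taken from the 1 merged matrix that the authors deposited. Per the file headers, Cell Ranger 6.1.2 produced these counts, on mm10 per the submitters' processing notes; the steps before that are not given in the sources used here.

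Barcodes under 500 detected genes, or over 10% of UMIs from mitochondrial genes, were removed, and no doublet caller was run; leaving out the 8% of cells with the most UMIs is one of the alternatives. UMIs were summed per library and set and given as CPM, and log2 ratios used a pseudocount of 1 CPM. A gene was counted as higher or lower if it differed 2-fold in 1 direction in 4 of 4 libraries, at a mean of at least 20 CPM. Shares were also taken from cells thinned to 4000 UMIs. The calls were run on simulated counts that were deeper than the small sets, held changes well past 2-fold and no differences between cells. This run does not show how the calls behave in the small sets.

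Barcode endings could not be tied to samples, so the planned edgeR test of mutant against wild type was not run, and no p-value, mean or SD is given. The planned gene counts for Cd209a and plasmacytoid cells were not made because a library held 5 such cells at most. The members, markers and 26 gene lists were chosen with earlier results of these data known. The genes named were, per comparison, the 12 highest and 12 lowest at 50 CPM or more and at least 10 UMIs in every library, up to 6 called members of each list, the markers and Srcap. Others given for their role, among them H2-K1, Kit, Klf4, Cxcl9, Mki67, Ccr7 and Fscn1, were chosen after their values were seen. Some genes are not reported here. Gene coordinates are from GENCODE vM21 (mm10) and promoters from RefSeq (GRCm38.p6). Python 3.11.15, numpy 2.4.6, scipy 1.17.1, pandas 2.3.3, matplotlib 3.10.9 and R 4.3.3 with edgeR 4.0.16 (TMM only) were used.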

Additional observations from a re-analysis of the deposited data

How the results depend on the processing

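No paired analysis was possible because the barcode endings carry no replicate number and no result comes from a test. The share of dendritic cells (median 1.82% of kept cells) was 2.06% with the rule's minimums halved, 1.44% without cells with other lineages' UMIs and 1.63% with the rule applied anew to cells thinned to 4000 UMIs, which leaves only the cells that still meet its minimums. The thinned values below are over those cells, not over all dendritic cells as in the shares after thinning above. The Xcr1 or Clec9a share (84.2%) was 75.6% with minimums halved, 87.7% with them doubled, 73.8% at 2 UMIs and 78.4% among the cells taken anew after thinning, and the share with neither (12.9%) was 21.6%, 9.38%, 24.1% and 18.6% under the same settings. The share with both (1.42%) was 0.314% at 2 UMIs and 0.212% among the cells taken anew. The dividing share (18.5%) was 13.1% without cells with other lineages' UMIs and 14.2% among the cells taken anew after thinning. The setting without cells with other lineages' UMIs was chosen after seeing the data.

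Counts of called genes depended on the filter and the scaling, and values are given as higher and lower. With a filter of 5 CPM they were 695 and 923 against all other cells, and 109 and 51 for Xcr1 or Clec9a cells against neither, and 552 and 61 for dividing against resting cells; lower genes numbered 516 against macrophages and 253 against B cells. With no filter the counts were 830 and 1278, 560 and 524 (macrophages), 663 and 277 (B cells), 216 and 64 (neither) and 634 and 95 (resting). TMM scaling gave 221 lower genes against all other cells, 396 and 186 against macrophages, 98 and 16 against neither, and 86 lower in dividing cells. Without dendritic cells that held other lineages' UMIs, lower genes numbered 639, 491, 213 and 54 against all other cells, macrophages, B cells and neither. The other kept cells, macrophages and B cells were left whole in this setting. Doubled minimums gave 18 lower genes against neither, and leaving out the 8% of cells with the most UMIs gave 24 lower genes in dividing cells.

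Leaving out each library in turn gave shares of 1.76% to 1.88% for dendritic cells, 84.1% to 84.3% for Xcr1 or Clec9a, 0.725% to 1.59% for Cd209a, 1.25% to 1.59% for both, 11.3% to 14.5% for neither and 18.2% to 18.8% for dividing cells. Higher genes numbered 463 to 481 and lower ones 423 to 459 against all other cells, 248 to 279 and 379 to 438 against macrophages, and 342 to 363 and 156 to 169 against B cells. Against neither they numbered 71 to 85 and 41 to 50 (lower genes: 46 without library 1 and 50 without library 4), and in dividing cells 360 to 391 and 40 to 66 (58 without library 3 and 66 without library 4). Fewer libraries have to share a direction in these counts. Of 350 values of list medians under alternatives, 318 stayed within the range that the list's median spans over the 4 libraries, 31 moved by more, and 1 changed sign: the stem and progenitor list in dividing cells, at -0.023 without cells with other lineages' UMIs. The cause was not tested. Single genes were followed for 24 genes of each comparison, those ranked highest and lowest, and none of these changed direction under any alternative. Of them, 9 genes against neither and 4 in dividing cells (Atp6v0a2, Havcr2, Rtl8a and Tbc1d9) lost their call under at least 1. The other genes given in the text were not followed in this way. Depth limits the small sets: the macrophages and mature B cells were shallower than the dendritic cells, and a gene at 0 UMIs in them was not detectable at this depth.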

Other observations

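Some genes of the type I interferon response and immediate early lists were also higher in the dendritic cells than in the other kept cells. Of 11 type I interferon response genes that passed the filter, 4 were higher and none lower, with a median log2 ratio of 0.48 against -0.26 over all genes. Irf7, the factor that amplifies interferon, had a log2 ratio of 2.2, and Stat2, a mediator of interferon signalling, one of 1.65. The list summed to 751 to 860 CPM in the dendritic cells and 716 to 932 CPM in the macrophages. It summed to 503 to 640 CPM in the mature B cells and 2707 to 3666 CPM in the few plasmacytoid cells. Of 10 immediate early genes, 4 were higher and 1 lower. That list summed to 1081 to 1187 CPM in the dendritic cells, 292 to 597 CPM in the macrophages and 1118 to 1407 CPM in the mature B cells. Klf2, a factor of resting lymphocytes and monocytes, had a log2 ratio of 4.95, and Btg2, an antiproliferative gene, one of 2.5.

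A pair of receptor genes known from other cells was also higher. Klrd1, which encodes the natural killer receptor chain CD94, stood at 46.5, 25.6, 36.7 and 59 CPM in the dendritic cells and 3.16, 3.93, 2.86 and 4.95 CPM in the other kept cells (log2 ratio 3.31), while Cd3e had no UMI in any dendritic cell. Treml4, a receptor also found on monocytes, had a log2 ratio of 5.0.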
